A study of Homo sapiens with 18 samples.

Results

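The sites described here are the stretches of open chromatin that were found in every library of an ATAC-seq study of BE2C and Kelly cells. ATAC-seq uses a transposase that inserts sequencing adapters into DNA it can reach, so reads pile up where chromatin is open. Each of the 18 peak lists was cut to its strongest peaks by −log10 p, down to the length of the shortest list, counted on chromosomes 1 to 22 and X. Of the peaks of that shortest list, 8967 were autosomal. The autosomal peaks of the cut lists were merged wherever they overlapped by at least 1 bp, which gave 19306 regions. A region was kept when all 18 cut lists had a peak in it. That left 2925 regions, 15.2% of all, called shared sites below. Uncut lists would have kept 6171 regions, and a rule asking each library to cover 50% or more of a region would have kept 381. Presence in the cut lists chose the sites, so their number, their −log10 p and their folds against other regions are given as descriptions, with no test.

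BE2C and Kelly are established human neuroblastoma cell lines. The series title places the work in neuroblastoma with MYCN amplification. In each line, 3 libraries came from cells with a lentiviral short hairpin RNA against AHR named shAhR-1, 3 from cells with a distinct hairpin named shAhR-2, and 3 from cells with the empty lentiviral vector pLKO. Cells of all 6 groups had therefore been transduced, and untransduced cells were not analysed here. AHR encodes the aryl hydrocarbon receptor, a transcription factor that binds small ligands and then moves to the nucleus. Its level in these cells was not analysed here. Per the labels' protocols, each library was made from 50000 cells, and the libraries are called triplicates without a statement that they were separate cultures. The p-values below therefore rest on the spread among these libraries, part or all of which may be technical.

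Sites that are open whatever the cell type or treatment are a known feature of accessibility maps. Promoters of housekeeping genes, which every cell transcribes, and sites bound by the insulator protein CTCF make up many of them. Tissue-specific enhancers, in contrast, tend to open in few cell types. A further group of places looks open in most maps because reads from many copies of a sequence pile up there, as happens at repeats near centromeres, at nuclear copies of mitochondrial DNA and at DNA that a tumour has amplified. Genes and promoters at the sites were not analysed here, because no annotation of hg19, the build of the peak lists, was used.

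Libraries differed in depth, and 1 stood apart. Read totals were not used here. The background solved from the peak values, the most frequent local background of a library, was used as a measure of depth and lay between 0.601 and 4.42 overlapping fragments. The lowest value and the shortest list both belonged to replicate 1 of Kelly shAhR-1. The longest list, with 81637 peaks on chromosomes 1 to 22 and X, belonged to replicate 3 of BE2C shAhR-2. The measure need not follow depth alone. Within Kelly pLKO, replicate 2 had the highest background, 1.92, but the shortest list, with 19984 peaks. The shAhR-2 libraries of both lines had the highest backgrounds, on average 3.79 ± 0.556 in BE2C shAhR-2 and 1.62 ± 0.204 in BE2C pLKO, and 2.78 ± 0.195 in Kelly shAhR-2 and 1.65 ± 0.347 in Kelly pLKO (SD, n = 3 each). Depth and construct therefore cannot be told apart in any comparison of shAhR-2 with pLKO.

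Sharing was split towards the extremes. Of the 19306 regions, 4099 had a peak in 1 cut list and 1049 in 17, while each count from 4 to 16 libraries held between 483 and 915 regions. Of the regions present in all 9 BE2C libraries, 4796 in number, 61.0% were shared sites. Of the 3908 regions present in all 9 Kelly libraries, 74.8% were. Few regions separated the lines cleanly in the cut lists. In every BE2C cut list and no Kelly cut list there were 166, and in every Kelly cut list and no BE2C cut list 83. Weaker peaks of the full lists were not counted here.

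**Figure D1:**
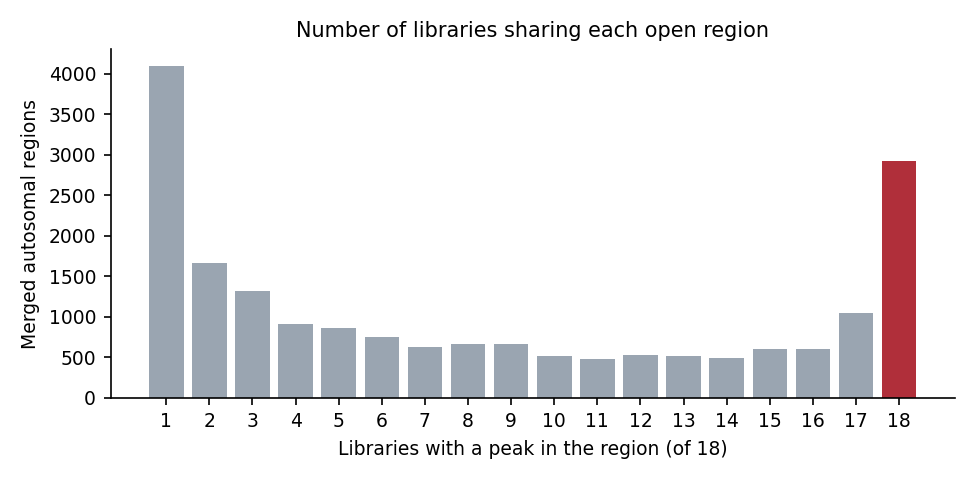
Merged autosomal regions (y axis) by the number of libraries whose cut list has a peak there (x axis, of 18), with the shared sites in red. The 2925 regions found in all 18 libraries outnumber those of every other class except the 4099 found in 1.

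The 1049 regions that missed the rule by 1 library were unevenly spread over the libraries. Of these, 532 lacked a peak in Kelly shAhR-1 replicate 1 alone, whereas the count for any other library lay between 6 and 76. In 507 of the 1049, or 48.3%, the lacking library had a weaker peak in its full list. The 532 could not be among them, because Kelly shAhR-1 replicate 1 had the shortest list, which the cut left whole. All 507 therefore lay among the regions that lacked a different library. The 48.3% does not show how often a weaker peak was absent where it was possible. Without Kelly shAhR-1 replicate 1 the rule kept 3457 sites. The strongest of the near misses lay on chromosome 14 at 32954018 to 32954324, where 17 libraries had folds between 23.3 and 37.4, with no cut-list peak in BE2C shAhR-1 replicate 2. The next, on chromosome 19 at 36066505 to 36066753 and on chromosome 1 at 236260411 to 236260696, lacked the same library, with folds of at least 18.9 and 17.7 elsewhere. At the other side of the threshold lay the sites on chromosome 18 at 30050088 to 30051480 and at 67872511 to 67873651. The site on chromosome 1 at 92763920 to 92765047 lay there too. At each of these sites a peak had the lowest −log10 p kept in its cut list, tied with other peaks of that list. Their folds ranged over the libraries from 6.77 to 13.5, from 5.0 to 15.4 and from 7.05 to 15.5.

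Shared sites were mostly wide regions with 1 peak per library. Their median width after merging was 1392 bp, with 968 bp at the 5th and 2226 bp at the 95th percentile, and 4.29 Mb in all. The median over all merged regions was 1070 bp, over regions of 17 libraries 1305 bp and over regions of 1 library 404 bp. Merging more peaks widens a region by construction. The bases covered by a library's own peaks, free of that effect, had a median of 1011 bp per site. At 2784 sites, or 95.2%, no library had more than 1 peak. In all 18 libraries the shared sites held between 32.8% and 33.9% of the autosomal peaks of the cut list but between 35.8% and 43.1% of its bases.

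Summits fell close together across lines and constructs. The distance between the summits of the strongest peaks of 2 libraries at a site had a median of 39.7 bp averaged over the 18 pairs of the same group. It was 44.9 bp over 54 pairs of the same line but different constructs, and 45.5 bp over 81 pairs of BE2C with Kelly. The span of all 18 summits at a site had a median of 196 bp, with 68 bp at the 5th and 561 bp at the 95th percentile. At 63 sites the 18 summits lay within 20 bases. Of these 63 sites, 51 had a local background of at least 5 times that of the genome (81.0%), against 36.6% of the other 2862. Another shared site lay within 50 kb of 74.6% of the 63 and of 21.1% of the others.

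The fold of a peak, the caller's ratio of pileup to local background at the summit, was on average highest in the pLKO libraries of each line. The median fold at the shared sites was 11.7, 8.5 and 8.78 in the BE2C shAhR-1 libraries, 9.56, 9.48 and 8.51 in BE2C shAhR-2, and 12.3, 13.1 and 12.6 in BE2C pLKO. In Kelly it was 6.51, 9.79 and 9.20 with shAhR-1, 9.54, 9.30 and 10.6 with shAhR-2, and 12.3, 8.21 and 12.5 with pLKO. No BE2C hairpin library reached a BE2C pLKO library, while in Kelly replicate 2 of pLKO lay below every shAhR-2 library. The group mean was 9.66 ± 1.77 for BE2C shAhR-1, 9.18 ± 0.584 for BE2C shAhR-2 and 12.7 ± 0.384 for BE2C pLKO (SD, n = 3 each). It was 8.5 ± 1.75 for Kelly shAhR-1, 9.81 ± 0.682 for Kelly shAhR-2 and 11 ± 2.41 for Kelly pLKO. Folds depend on depth and local background, so folds of different libraries were not tested against each other.

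**Figure D2:**
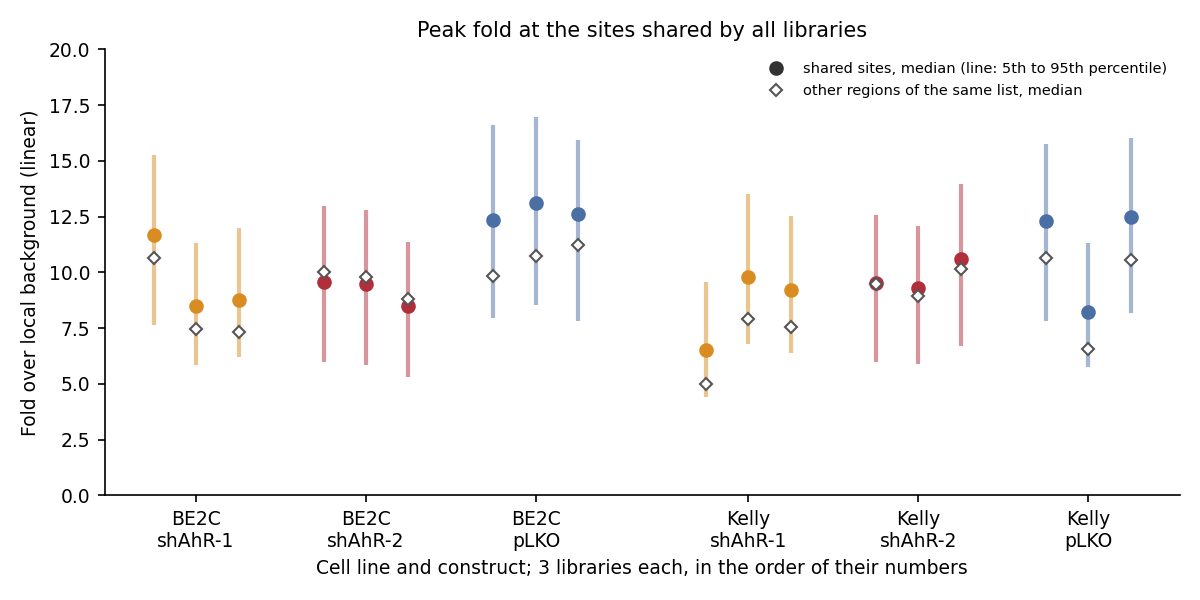
Fold over local background (y axis, linear) at the shared sites in each library, grouped by line and construct along the x axis. Filled points are medians, lines run from the 5th to the 95th percentile, and open diamonds are medians over the other regions of the same cut list; the shared median is above the diamond in every shAhR-1 and pLKO library, but below it in the 3 BE2C shAhR-2 libraries.

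The pileup at the summit, solved from fold and p, had a median at the shared sites between 13 in Kelly shAhR-1 replicate 1 and 220 in BE2C shAhR-2 replicate 3. Other regions of the cut lists had lower median folds than the shared sites in all 12 libraries with shAhR-1 or pLKO. In BE2C shAhR-2 the order was the reverse, with medians of 9.56, 9.48 and 8.51 at shared sites and 10.0, 9.80 and 8.82 at other regions. In Kelly shAhR-2 the medians were 9.54, 9.30 and 10.6 at shared sites and 9.46, 8.94 and 10.2 at other regions.

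The strongest shared sites were short. The rule for naming took the 5 sites with the highest value of the lowest fold over the libraries, and these were between 294 and 642 bp wide. The first lay on chromosome 2 at 88124410 to 88124836. Its folds were 35.3, 26.8 and 38.6 in BE2C shAhR-1, 30.5, 28.2 and 27.5 in BE2C shAhR-2, and 38.6, 38.6 and 31.1 in BE2C pLKO. In Kelly they were 41.2, 43.8 and 36.5 with shAhR-1, 30.6, 27.9 and 29.4 with shAhR-2, and 32.8, 37.1 and 36.0 with pLKO. The site ranked 1, 2 or 3 by fold in every cut list, and its 18 summits lay within 10 bp. The shAhR-2 libraries had lower folds here than the pLKO libraries of their line, without overlap.

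A pair of sites on chromosome 9, at 69710696 to 69711337 and 66971006 to 66971639, came next with lowest folds of 22.9 each. Their folds were close to each other within each library, for example 27.5, 22.9 and 31.7 at the one and 26.9, 22.9 and 30.3 at the other in BE2C shAhR-1. All 18 summits of the second fell on the same base. Local background was 25.6 and 25.9 times the genome background in BE2C and 31.4 and 33.3 times in Kelly. Whether the pair share reads as copies of 1 sequence was not tested. The remaining sites lay on chromosome 8 at 70602287 to 70602616, with folds between 19.7 and 31.6, and on chromosome 11 at 85195011 to 85195304, with folds between 17.5 and 27.9.

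Wider sites had lower folds over the whole set, as a description. The 28 sites of up to 700 bp had a median of the per-site median fold of 15.9 and a median summit span of 28 bp. For the 1667 sites between 1000 and 1500 bp these were 10.6 and 184 bp, and for the 263 sites over 2000 bp they were 7.71 and 268 bp. Over all shared sites the median fold of a site had a median of 10.0, with 6.91 at the 5th and 12.5 at the 95th percentile.

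The widest sites combined low folds with high local background. On chromosome 2 at 92305428 to 92310296, the widest at 4869 bp, folds lay between 3.60 and 5.76, up to 5 peaks fell in 1 library, and local background was 67.2 times that of the genome in BE2C and 74.0 times in Kelly. The site on chromosome 10 at 42390696 to 42394957 had folds between 2.35 and 3.03, with 192 times the genome background in BE2C and 254 times in Kelly. On chromosome 17 at 25263812 to 25267927 folds lay between 4.14 and 5.28, at 19.9 times in BE2C and 24.9 times in Kelly. Up to 4 peaks fell in 1 library there, and the summits spread over 2427 bp. On chromosome 5 at 115907895 to 115912281, merging had chained peaks that covered a median of 592 bp per library, the summits spread over 1483 bp, and background was 8.77 times that of the genome in BE2C and 7.79 times in Kelly. A peak in every library at sites with such a spread need not be the same open stretch in every library.

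The sites with the steadiest fold also had high background. The 5 sites with the smallest SD of log2 fold over the 18 libraries, between 0.067 and 0.084, lay on chromosome 10 at 42355421 to 42357238 and 42599077 to 42600457, on chromosome 4 at 49634510 to 49636840, on chromosome 7 at 61967832 to 61970597 and on chromosome 6 at 58776269 to 58779731. The median SD over all shared sites was 0.32. At the first of them folds were 5.01, 4.88 and 4.95 in BE2C shAhR-1, 5.20, 5.11 and 4.87 in BE2C shAhR-2 and 5.53, 5.13 and 5.52 in BE2C pLKO. In Kelly they were 5.18, 5.14 and 5.03 with shAhR-1, 5.08, 4.83 and 4.75 with shAhR-2, and 4.86, 4.74 and 4.71 with pLKO. Even replicate 1 of Kelly shAhR-1 stood among the others. Background at the 5 sites was between 34.3 and 161 times that of the genome in BE2C and between 36.7 and 187 times in Kelly.

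Background of at least 20 times that of the genome in either line was present at 105 shared sites, 3.59% of all. They fell into 37 blocks, joined at up to 1 Mb, on 17 chromosomes, and 88 of the 105 reached the threshold in both lines. Their median fold was 5.08, against 10.1 for the other shared sites. The largest block by number held 16 sites on chromosome 10 between 42355421 and 42600457. A further 15 sites lay on chromosome 4 between 49093405 and 49641778, and 7 on chromosome 2 between 91761793 and 92325900. The highest background stood at 3 sites on chromosome 1 between 564483 and 570257, with medians over the libraries that could be solved between 1453 and 1516 times that of the genome in BE2C and between 1391 and 2028 times in Kelly, and median folds of only 3.38 to 3.63. Neither repeats, copies of mitochondrial DNA nor copy number were analysed here, so their part in these backgrounds was not tested.

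A block of 11 shared sites on the short arm of chromosome 2, the arm that carries MYCN, showed where the lines differed. This block was chosen after its values were seen and gets no test. MYCN encodes a transcription factor of the MYC family, and extra copies of it define a high-risk form of neuroblastoma. In BE2C, 10 of the 11 sites, from 16079696 to 16576872, had a local background between 80.3 and 307 times that of the genome. In Kelly all 11 sites had between 109 and 381 times. The widest site of the block, at 16079696 to 16083878, had the highest background in both lines, and its 18 summits fell on the same base.

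The remaining site of that block, on chromosome 2 at 15982426 to 15984723, had high background in Kelly and ordinary background in BE2C. Local background in BE2C was 7.04, 4.36 and 4.70 times that of the genome with shAhR-1, 6.67, 6.91 and 5.65 times with shAhR-2 and 5.63, 4.59 and 6.27 times with pLKO. In Kelly it was 204, 279 and 265 times with shAhR-1, 199, 175 and 210 times with shAhR-2 and 280, 246 and 277 times with pLKO. The lines did not overlap. Folds at the same site nevertheless did, between 5.76 and 10.3 in BE2C and between 4.11 and 8.20 in Kelly. The ratio of BE2C to Kelly background, 0.023, was the lowest of all shared sites, and the next lowest was 0.345. Over all 2925 sites that ratio had a median of 1.11, with 0.676 at the 5th and 1.79 at the 95th percentile and 4.03 at the highest.

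Regions that were not shared carried the high background beyond the block, further in Kelly than in BE2C. In BE2C, the 37 regions with solved peaks between 16079696 and 16602550 all had at least 59.2 times the genome background, the region before them had 5.65 times and the region after them 3.11 times. In Kelly, the 129 such regions between 15834281 and 16840793 all had at least 60.9 times, and the regions on either side had 5.40 and 2.70 times. The stretch was therefore 523 kb long in BE2C and 1007 kb in Kelly, as far as peaks mark it. The rule for shared sites counts peaks and the fold divides by local background, so neither reads this level directly.

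**Figure D3:**
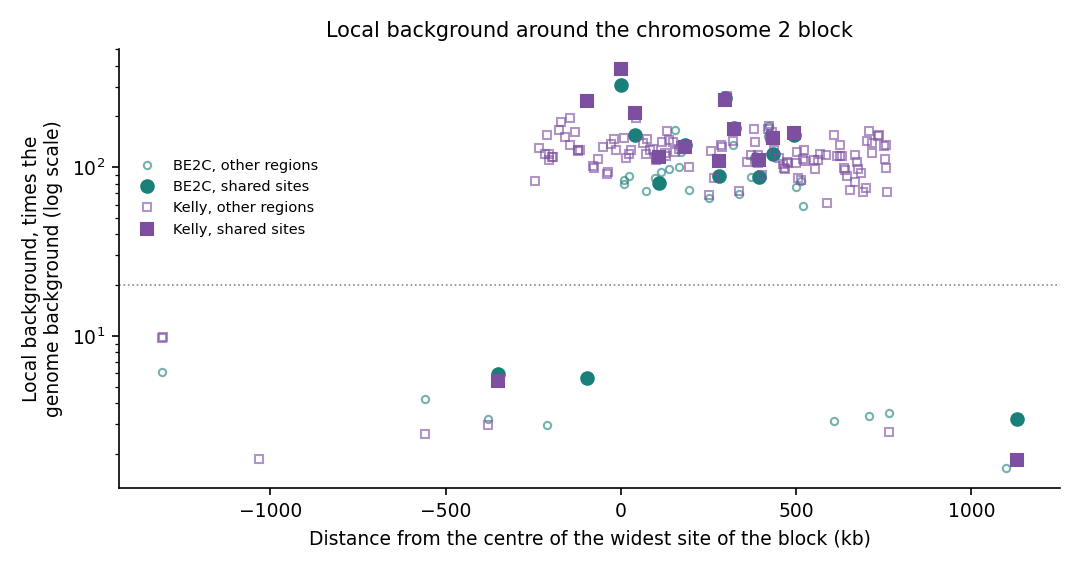
Local background as a multiple of the genome background (y axis, log scale; median over the libraries of a line) by distance in kb from the centre of the widest site of the chromosome 2 block (x axis). Filled symbols are shared sites and open symbols other regions, circles BE2C and squares Kelly, and the dotted line marks 20 times; the first filled pair left of 0 is the site with 5.65 times in BE2C and 246 times in Kelly.

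Shared sites were spread unevenly over the chromosomes. Chromosome 1 held 364 of them and chromosome 7 held 290. As a share of a chromosome's merged regions, they were most frequent on chromosome 14 with 21.9%, chromosome 4 with 21.3% and chromosome 7 with 21%. They were least frequent on chromosome 16 with 7.5%, chromosome 19 with 6.61% and chromosome 22, where 4 of 306 regions, or 1.31%, were shared. On chromosome X, treated the same way but not counted among the sites, 69 of 615 regions had a peak in every library.

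**Figure D4:**
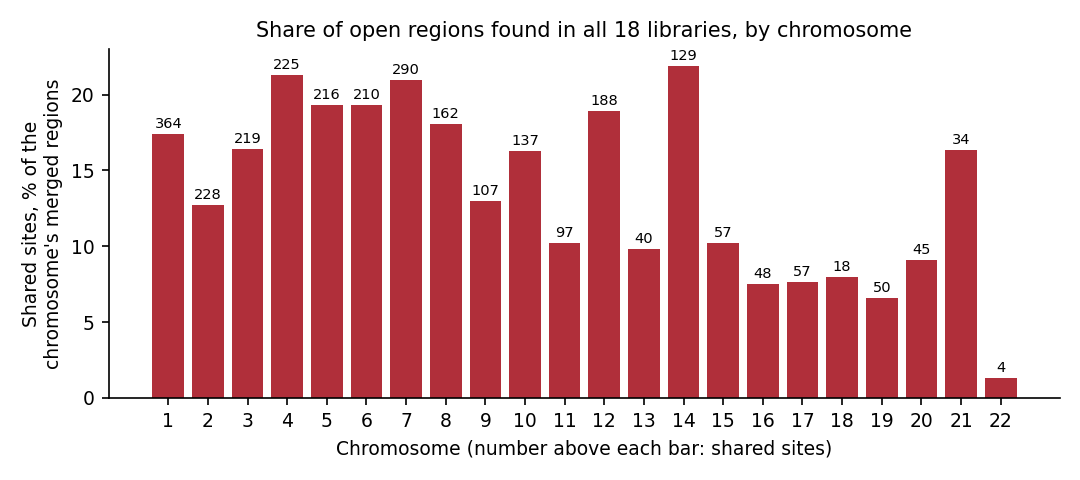
Shared sites as a percentage of all merged regions of a chromosome (y axis) for chromosomes 1 to 22 (x axis), with the number of shared sites above each bar. Chromosome 22 stands lowest with 4 sites, or 1.31%, and chromosome 14 highest with 129 sites, or 21.9%.

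The count on chromosome 22 depended on which 3 lists of a group took part in the rule. Without BE2C shAhR-2, 18 regions of chromosome 22 had a peak in the other 15 lists, 4 of them in all 18 cut lists and 11 in none of the 3. At 18 of 306 regions that share was still smaller than the 55 of 640 kept on chromosome 16 and the 81 of 757 kept on chromosome 19 in the same way. All 18 had a peak in the full lists of the 3 libraries, with median folds of 9.01, 8.36 and 7.28. Their median −log10 p was 57.3, 53.5 and 50.2, below the lowest values kept in the cut lists of the same libraries, 63.0, 62.1 and 59.8. Leaving out Kelly shAhR-1, the group with the shallowest library, gave 7 regions on chromosome 22, and leaving out any of the other 4 groups gave 4. Without BE2C shAhR-2 the count was 81 on chromosome 19, against 50 with all lists, 85 on chromosome 17, against 57, and 55 on chromosome 16, against 48. Without Kelly shAhR-1 it was 84 on chromosome 19, 62 on chromosome 17, 84 on chromosome 16 and 77 on chromosome 20, against 45 with all lists. These alternatives were chosen after the data were seen.

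Most shared sites stood alone. The gap to the next shared site had a median of 318 kb, and 2274 sites had no neighbour within 50 kb. Runs of at least 6 sites, each within 50 kb of the next, numbered 5. A run of 12 sites lay on chromosome 10 from 42355421 to 42409720 and another of 12 on chromosome 4 from 49093405 to 49157007. Runs of 8 on chromosome 2 from 92269007 to 92325900 and of 6 on chromosome 11 from 51569592 to 51591359 followed. In those 4 runs the median background was at least 24.0 times that of the genome in BE2C and 47.3 times in Kelly. The run of 6 sites on chromosome 1 from 249119762 to 249240609 differed from them, with 8.13 times in BE2C, 8.17 times in Kelly and a median fold of 9.28.

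The order of the sites by fold was more alike between the shAhR-2 libraries of the 2 lines than within a line across constructs. Spearman's correlation of fold over the 2925 sites, a description across sites that share reads within each library, averaged 0.838 between BE2C shAhR-2 and Kelly shAhR-2 over 9 pairs of libraries. It averaged 0.617 between BE2C shAhR-2 and BE2C pLKO and 0.652 between Kelly shAhR-2 and Kelly pLKO. Between BE2C pLKO and Kelly pLKO it was 0.693, and between BE2C shAhR-1 and Kelly shAhR-1 0.485. Within groups it was 0.928 for BE2C shAhR-2 and 0.882 for Kelly shAhR-2, but 0.514 for Kelly shAhR-1, the group with the shallowest library. Depth differed the same way between these groups, and its part in the correlations was not tested.

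**Figure D5:**
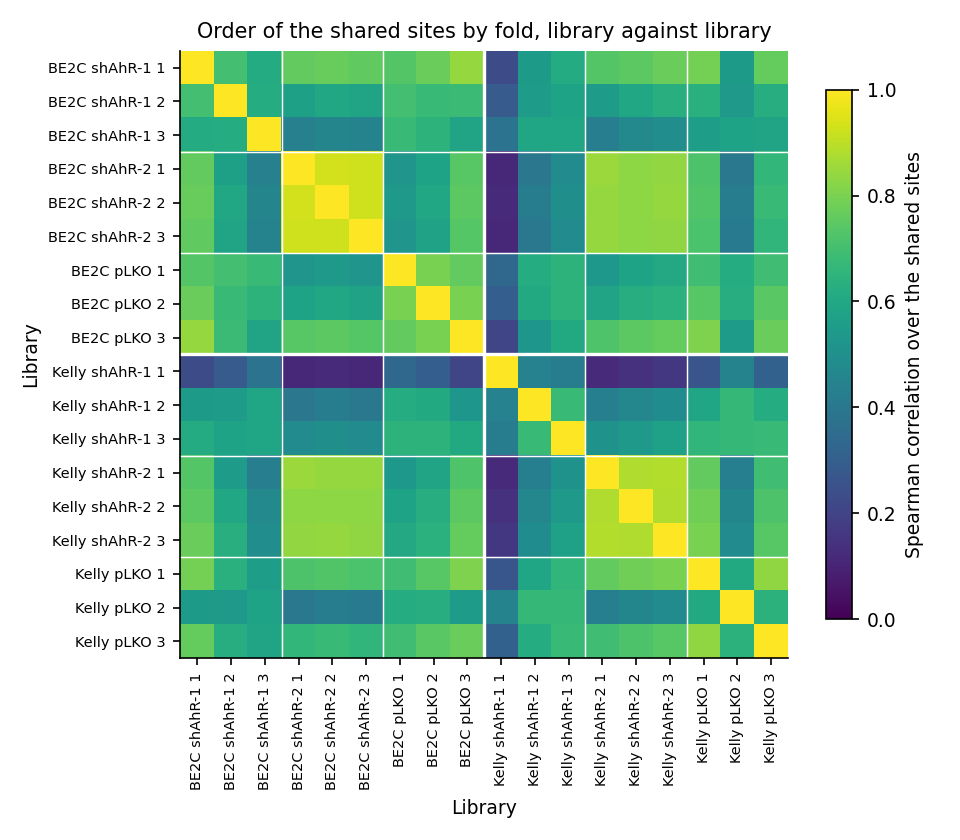
Spearman correlation of fold over the shared sites (colour, scale at the right) for each pair of the 18 libraries, ordered by line and construct on both axes. The shAhR-2 libraries of BE2C and Kelly form bright blocks with each other, averaging 0.838, and the dark row and column belong to Kelly shAhR-1 replicate 1.

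Whether a site held its place among the peaks of a library was tested on the rank of its fold within the cut list. Ranks were turned into normal scores, on which a difference of 1 corresponds to 1 SD of all peaks of a list, and compared with limma over every region present in all libraries of the fit. Regions with an adjusted p under 0.05 (Benjamini-Hochberg over all regions tested) were called. The median rank of the shared sites was 3341, 2944 and 2493 in the BE2C shAhR-1 libraries, 5144, 4995 and 5070 in BE2C shAhR-2 and 2322, 2418 and 3046 in BE2C pLKO, where 1 is the highest fold. In Kelly it was 2360, 2348 and 2458 with shAhR-1, 4505, 4064 and 4077 with shAhR-2, and 2733, 2238 and 2538 with pLKO. In both lines the shared sites stood lower in every shAhR-2 list than in every other list.

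With shAhR-1, hardly any shared site was called different in rank, as over all regions tested. In BE2C 0 of 2925 were called higher or lower by limma, against 0% of the 4796 regions tested, with 312 sites at an unadjusted p under 0.05. In Kelly, 421 shared sites had an unadjusted p under 0.05. Of the shared sites 0 were called higher and 1 lower, against 0% and 0.0512% of the 3908 regions tested. That site lay on chromosome 7 at 97735606 to 97736912. Its folds in Kelly were 4.25, 8.22 and 6.86 with shAhR-1 and 13.7, 10.5 and 15.2 with pLKO, and the groups did not overlap. The score difference was −2.21 ± 0.37 (SE; limma adjusted p = 0.0465). In BE2C, folds at the same site were 14.6, 8.35 and 10.5 with shAhR-1 and 13.1, 15 and 12.9 with pLKO, which overlap.

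The count in Kelly rested on single libraries. Without pLKO replicate 2, 67 shared sites were called higher and 6 lower with shAhR-1. Without replicate 1 of shAhR-1, the library that stood apart, 0 were called.

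With shAhR-2 in BE2C, 59 shared sites were called higher and 1010 lower by limma, or 34.5% of them lower. Among all 4796 regions tested, 3.19% were called higher and 25.3% lower. The median score difference was −0.65 at the shared sites and −0.43 over all regions, most of which are shared sites. At the other 1871 regions it was −0.16, with 5.02% called higher and 10.8% lower. The shared sites were chosen by presence in these same lists, so the contrast between them and the other regions is a description. When each library's scores were centred on their median over the regions tested, an alternative added after the data were seen, 147 shared sites were called higher and 294 lower, against 380 higher and 325 lower over all 4796 regions. The split between higher and lower therefore depends on that centring. Leaving out any shAhR-2 library, or replicate 1 or 2 of pLKO, gave between 572 and 634 calls in all.

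The sites that rose furthest in rank with shAhR-2 in BE2C included the last and the first shared site of chromosome 1. On chromosome 1 at 249239381 to 249240609 folds were 15.9, 16.5 and 15.2 in BE2C shAhR-2 and 9.24, 11.4 and 11.5 in BE2C pLKO. These corresponded to ranks of 41, 31 and 32 against 6515, 4560 and 4901, with a score difference of 2.89 ± 0.34 (SE; limma adjusted p = 0.00123). On chromosome 1 at 10004 to 10688 folds were 17.1, 17.7 and 16.1 in BE2C shAhR-2 and 9.30, 13.2 and 13.5 in BE2C pLKO, with a score difference of 2.49 ± 0.36 (SE; limma adjusted p = 0.00253). The third, on chromosome 7 at 64954308 to 64955512, had folds of 12.6, 13.5 and 12.6 in BE2C shAhR-2 and 10.0, 10.8 and 9.99 in BE2C pLKO. None of the 3 overlapped between the groups. In Kelly the first site had folds of 12.6, 11.7 and 10.7 with shAhR-2 and 10.3, 12.0 and 12.0 with pLKO, and the second 13.7, 12.4 and 15.9 with shAhR-2 and 14.5, 15.1 and 17.3 with pLKO, which overlap.

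The sites that fell furthest in rank with shAhR-2 in BE2C kept a peak in every list, as the choice of sites requires. On chromosome 8 at 57123337 to 57124912 folds were 7.46, 8.06 and 7.03 in BE2C shAhR-2 and 15.4, 17 and 13.6 in BE2C pLKO. The score difference was −2.45 ± 0.49 (SE; limma adjusted p = 0.00375). The pileup behind these folds, not scaled for depth, was 336, 352 and 344 overlapping fragments in BE2C shAhR-2 and 173, 239 and 341 in BE2C pLKO. The genome background of the same libraries was 3.395, 3.545 and 4.424 in BE2C shAhR-2 and 1.511, 1.495 and 1.856 in BE2C pLKO. The raw pileups therefore do not show whether signal was kept. On chromosome 11 at 111472583 to 111474049 folds were 8.53, 8.10 and 7.37 in BE2C shAhR-2 and 16.6, 16.1 and 14.4 in BE2C pLKO. On chromosome 2 at 225449085 to 225450864 they were 6.63, 6.67 and 6.21 in BE2C shAhR-2 and 15.9, 13.8 and 12.2 in BE2C pLKO. At all 3 sites each shAhR-2 library lay below each pLKO library. In Kelly the chromosome 8 site had folds of 8.16, 8.07 and 8.68 with shAhR-2 and 13.3, 10.3 and 14.0 with pLKO, also without overlap. The groups did overlap in Kelly at the other 2, with folds of 8.30, 10.8 and 12.2 with shAhR-2 and 13.2, 9.87 and 13.7 with pLKO at the chromosome 11 site, and 7.41, 8.91 and 10.1 with shAhR-2 and 13.2, 8.41 and 12.7 with pLKO at the chromosome 2 site.

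With shAhR-2 in Kelly, 6 shared sites were called higher and 202 lower, against 0.281% and 5.83% of the 3908 regions tested. The calls rested on every shAhR-2 library and on pLKO replicate 3, since leaving out any of these gave 0 calls, and leaving out pLKO replicate 2 gave 1 higher and 3 lower. Centred scores gave 3 higher and 4 lower, against 7 higher and 4 lower over all 3908 regions. The site that fell furthest, on chromosome 1 at 164527835 to 164529257, had folds of 8.80, 8.69 and 9.96 in Kelly shAhR-2 and 15.4, 11.2 and 16.7 in Kelly pLKO (score difference −2.30 ± 0.30, SE; limma adjusted p = 0.00485). On chromosome 7 at 143533238 to 143534592 folds were 8.33, 7.76 and 9.19 in Kelly shAhR-2 and 13.4, 11.4 and 15.1 in Kelly pLKO. On chromosome 2 at 76919515 to 76921090 they were 9.55, 8.51 and 10.8 in Kelly shAhR-2 and 16.5, 10.6 and 17.2 in Kelly pLKO, so that the highest shAhR-2 library stood above the lowest pLKO library in fold though not in rank.

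The sites called higher with shAhR-2 in Kelly were led by chromosome 12 at 94152 to 95730. Folds there were 16.5, 19.8 and 20.6 in Kelly shAhR-2 and 12.4, 12.5 and 11 in Kelly pLKO, without overlap (score difference 1.88 ± 0.48, SE; limma adjusted p = 0.0363). That call was lost with centred scores (limma adjusted p = 0.057) and in lists cut to 5000 (limma adjusted p = 0.0819). It was also lost without any 1 shAhR-2 or pLKO library other than pLKO replicate 2. On chromosome 2 at 32502644 to 32503970 folds were 12.7, 12.3 and 14.3 in Kelly shAhR-2 and 12.8, 6.07 and 11.4 in Kelly pLKO, and on chromosome 4 at 103351742 to 103352837 they were 13.1, 14.2 and 14.6 in Kelly shAhR-2 and 12.7, 7.05 and 13.9 in Kelly pLKO. Both pairs overlap in fold, and pLKO replicate 2, the pLKO library with the lowest median fold, was the low one at each. Without pLKO replicate 2, without pLKO replicate 3 or without any 1 shAhR-2 library both calls were lost, and the chromosome 2 call was also lost with centred scores (limma adjusted p = 0.0652).

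The sites called lower with shAhR-2 in the 2 lines coincided in part. In both lines 157 sites were called lower, which is 15.5% of the 1010 of BE2C and 77.7% of the 202 of Kelly, where 34.5% of all shared sites were called lower in BE2C. Only 2 sites were called higher in both, where 2.02% of all shared sites were called higher in BE2C and 0.205% in Kelly. Of the 1010 lower in BE2C, 0 were higher in Kelly, and of the 59 higher in BE2C, 0 were lower in Kelly. In Kelly 0.205% of all shared sites were called higher and 6.91% lower, so few could have coincided and these counts of 0 show little. Centred scores left 4 shared sites lower in Kelly, so the overlap of 157 holds only without centring. The lines share no libraries, but the shAhR-2 libraries had the highest genome backgrounds, the measure of depth used here, in both. The part of depth was not tested.

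As a description, sites called lower were wider and had more background than the others. The fold that was ranked divides by local background, so the calls and the background are not independent. In BE2C the sites called lower had a median width of 1477 bp, against 1187 bp for sites called higher and 1346 bp for sites not called. Their median background, taken over all 18 libraries of both lines, was 5.34 times that of the genome. It was 2.82 times for sites called higher and 3.83 times for sites not called. Sites called lower in Kelly had a median width of 1514 bp and, over the same 18 libraries, 6.24 times the genome background. Sites called higher in Kelly had 1292 bp and 2.65 times, and sites not called 1380 bp and 4.20 times. By width, 0 of 28 sites up to 700 bp were called lower in BE2C, 15.1% of those between 700 and 1000 bp, 31.4% between 1000 and 1500 bp, 44.1% between 1500 and 2000 bp and 40.3% over 2000 bp. In Kelly the shares were 0%, 1.89%, 5.70%, 10.4% and 7.60%.

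In the empty-vector libraries few shared sites were called different in rank between the lines, at shares near those of all regions tested. In BE2C pLKO against Kelly pLKO, 1 site was called higher in BE2C and 6 lower, or 0.0342% and 0.205% of the shared sites. Of the 5141 regions tested, 0.0584% and 0.175% were called, and 275 shared sites had an unadjusted p under 0.05. Sites that were not called may still differ. Counts were 4 without replicate 1 or 2 of BE2C pLKO or replicate 3 of Kelly pLKO. The site higher in BE2C lay on chromosome 2 at 739894 to 741105. Folds there were 16.1, 18.4 and 16.1 in BE2C pLKO and 10.3, 8.08 and 9.25 in Kelly pLKO (score difference 2.34 ± 0.40, SE; limma adjusted p = 0.0112). The hairpin libraries, which this test did not use, divided in the same way, with folds between 13.6 and 17.5 in BE2C and between 5.36 and 8.5 in Kelly.

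The site lowest in BE2C against Kelly lay on chromosome 20 at 29518193 to 29519473. Folds were 9.47, 10.2 and 11.2 in BE2C pLKO and 19, 17.2 and 21.1 in Kelly pLKO (score difference −3.18 ± 0.34, SE; limma adjusted p = 8.64e-05). In the hairpin libraries they were between 8.30 and 11.2 in BE2C and between 14.1 and 25.8 in Kelly, and local background was 5.15 times that of the genome in BE2C and 4.92 times in Kelly. A pair on chromosome 9 came next, at 44992200 to 44993670 and 67790201 to 67792206. The first had folds of 6.60, 6.66 and 6.02 in BE2C pLKO and 11.5, 9.50 and 13.1 in Kelly pLKO, and the second 6.11, 5.86 and 5.29 in BE2C pLKO and 11.2, 10.2 and 11.5 in Kelly pLKO. Their backgrounds were also close to each other, 10.8 and 11.2 times in BE2C and 18.9 and 18.8 times in Kelly, and shared reads between the pair were not tested.

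Peak width, corrected for the median width of each library, was called different at few shared sites. With shAhR-2 in BE2C, 7 sites were wider and 4 narrower by limma, against 0.334% and 0.104% of all regions tested. In Kelly 0 sites were called with shAhR-2, against 0% in either direction, with 128 sites at an unadjusted p under 0.05. With shAhR-1 in Kelly 0 were called wider and 2 narrower, against 0% and 0.102%. With shAhR-1 in BE2C 0 were called, against 0%, with 271 sites at an unadjusted p under 0.05. Between the lines, 2 were wider and 1 narrower in BE2C pLKO than in Kelly pLKO, against 0.175% and 0.0778%. Single libraries set these counts. Leaving out 1 library at a time gave 1 to 18 sites with shAhR-2 in BE2C, with the lowest count without replicate 3 of shAhR-2 and the highest without replicate 3 of pLKO. It gave 0 to 12 sites with shAhR-1 in Kelly, the highest without replicate 2 of shAhR-1. Before the correction for median width 1215 shared sites were wider with shAhR-2 in BE2C and 4 narrower. The median width of a library's peaks at the shared sites was 1266 ± 32.7 bp in BE2C shAhR-2 and 991 ± 54.6 bp in BE2C pLKO, and 1142 ± 20.8 bp in Kelly shAhR-2 and 916 ± 103 bp in Kelly pLKO (SD, n = 3 each), and depth differed between the same groups.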

How the data were processed

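The 18 peak lists give per-peak values that the authors deposited: a display score, the fold of pileup over local background, and −log10 p and −log10 q. Each deposited list belongs to 1 library. Per the submitters' processing notes, the build was hg19 and the tools were the aligner BWA 0.7.17, the peak caller MACS2 2.1.0, deepTools 3.1.3, Trimmomatic 0.33 and CASAVA 1.8.2, without settings. How duplicates and reads with several matches were treated is not given in the sources used here, and both could move peaks at repeats.

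Peaks outside chromosomes 1 to 22 and X were left out. Pileup and local background were solved from fold and −log10 p at a peak's summit under a Poisson model, with a pseudocount of 1, for peaks of fold 1.5 or more and a tolerance of 0.01 on −log10 p. The genome background of a library is its most frequent local background. Folds were ranked within cut lists of equal length, and scores and log2 widths were fitted with limma 3.58.1 (R 4.3.3) over all regions present in every library of the fit. The fits were tested on simulated data. Python 3.11.15, NumPy 2.4.6, pandas 2.3.3, SciPy 1.17.1 and Matplotlib 3.10.9 did the rest.

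The sites, lists and rules were chosen with earlier results of these data known. The sites named were the 5 with the highest lowest fold, the 5 widest, the 5 steadiest, up to 3 called in each direction per comparison with ranks that did not overlap, and 3 on either side of the rule. Sites outside that rule are said to have been chosen after their values were seen, or stand as the ends of a run or block. Alternatives covered the cut, the overlap, the ranking value, centring, a replicate block and leaving out each library. For a comparison of groups, only libraries of the groups compared were left out.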

Additional observations from a re-analysis of the deposited data

How the results depend on the processing

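Beside the 2925 shared sites, lists cut to 5000 peaks gave 1317, full lists 6171, cutting by fold 1506 and a cover of at least 50% 381. Taking autosomal peaks first gave 2963, uncut lists with −log10 q from 5 upwards gave 3226, and leaving out 1 library gave 2931 to 3457. Counts of fold-rank calls in both directions together moved as follows. With shAhR-2 in BE2C, 1069 became 441 with centred scores (an alternative added after the data were seen), 163 at 50% cover and 457 in lists cut to 5000, and 572 to 1104 without 1 library. With shAhR-2 in Kelly, 208 became 7 with centred scores, 44 ranked by −log10 p, 54 at 50% cover, 8 in lists cut to 5000 and 0 to 231 without 1 library. With shAhR-1, lists cut to 5000 gave 3 calls in BE2C, and leaving out 1 library gave 0 to 1 in BE2C and 0 to 73 in Kelly; the single Kelly call was lost (0) at 50% cover and in lists cut to 5000. Between the lines, 7 became 397 ranked by −log10 p, 4 at 50% cover, 1 in lists cut to 5000 and 4 to 10 without 1 library. Width calls with shAhR-2 in BE2C were 1219 without centring, 5 at 50% cover and 1 to 18 without 1 library, and with shAhR-1 in BE2C 0 to 5 without 1 library. In Kelly, width calls with shAhR-1 were 0 without centring, at 50% cover and in lists cut to 5000, and 0 to 12 without 1 library, while with shAhR-2 they were 4 at 50% cover and 0 to 1 without 1 library. Between the lines they were 0 without centring, 1 in lists cut to 5000 and 1 to 4 without 1 library. The cause was not tested in these cases, except that a shorter list or a stricter cover also leaves fewer sites to test. At single named sites no direction reversed under these alternatives, and of 17 called results there 9 lost their call when ranked by −log10 p. Counts did change balance: the Kelly shAhR-1 call was 1 higher and 0 lower by −log10 p, and width calls with shAhR-2 in BE2C were 0 wider and 5 narrower at 50% cover. Since −log10 p also cut the lists that chose the sites, counts ranked by it are descriptions.

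Libraries with the same replicate number did not deviate together, with correlations of deviations from −0.27 to 0.088 in BE2C, from −0.16 to 0.088 in Kelly and from −0.19 to 0.14 over pLKO, so the numbers were not taken to pair the libraries. With a replicate block, fold-rank calls were 931 with shAhR-2 in BE2C, 117 with shAhR-2 and 0 with shAhR-1 in Kelly, and 35 between the lines. Width calls with the block were 5 with shAhR-2 in BE2C, 0 with shAhR-1 in Kelly and 0 between the lines. The planned distances to gene starts were not run, because no hg19 annotation was used. With 3 libraries a group and depth that differed between constructs, smaller differences in rank may have been missed, and a p that misses the threshold does not show that values did not differ.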
